A study of Homo sapiens with 12 samples.

Results

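The genes described here were ANKRD37, WSB1, ZNF395, STC2, IGFBP3, TMEM45A and C4orf3, 7 genes known to be inducible by the hypoxia-inducible factors (HIF) that lie outside the usual glycolytic and angiogenic sets. Each was taken by its gene name from the assembled transcript catalogue, keeping transcripts that matched an annotated isoform completely (class code =) or shared at least 1 splice junction with one (class code j), and the FPKM values of a gene's transcripts were summed in each library. This gave 69 transcripts of the 7 genes, of which 30 passed an FPKM of 0.5 in at least 3 libraries. All 7 genes were among the 16680 gene names that passed the same filter, out of 56537 in the catalogue. FPKM is a level that is already scaled to transcript length and to the size of the library.

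The cells were HCT116, an established human colorectal carcinoma line, grown in RPMI-1640 with 10% fetal bovine serum. Poly(A) RNA was sequenced with strand-specific libraries from cells at 0 h (21% oxygen) and after 1, 2 and 24 h in 1% oxygen, with 3 libraries per time point and 12 in all. The same untreated line served at every time point, hypoxia began 24 h after plating, and the 0 h libraries were the only normoxic controls, so that time in culture and time in low oxygen cannot be told apart. The study calls its replicates biological without saying how they were grown, and where they were not separate cultures the p-values measure only the spread between these libraries.

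HIF is a dimer of an oxygen-regulated alpha subunit and ARNT. In normoxia the EGLN prolyl hydroxylases mark the alpha subunit, and VHL directs its destruction. In low oxygen the alpha subunit persists, enters the nucleus and binds short hypoxia response elements in its target genes. The genes described here act in different places. ZNF395 is a zinc finger transcription factor and ANKRD37 a small ankyrin repeat protein. WSB1 is the substrate-binding subunit of a cullin-based ubiquitin ligase. STC2, a stanniocalcin, and IGFBP3, a carrier of insulin-like growth factors, are secreted. TMEM45A is a multi-pass membrane protein, and C4orf3 encodes a small endoplasmic reticulum membrane protein that inhibits the SERCA calcium pumps.

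The core of a hypoxia response element is ACGTG or GCGTG, read on either strand (CACGT or CACGC on the other). The RefSeq promoter table (GRCh38.p14) held 5 of the 7 genes, ANKRD37, WSB1, STC2, IGFBP3 and TMEM45A, and C4orf3 and ZNF395 were not matched. The 250 bases before each start were searched, and overlapping matches were counted as 1 run. ANKRD37, STC2 and WSB1 each had 2 runs and IGFBP3 had 3, while these letters were not found in the TMEM45A window. Over all 35116 promoters of the table, 43.2% held at least 1 run and 16.1% at least 2. A match is a description of the letters and not a site of HIF binding, which was not measured. The stretches that hold the matches are shown because all 4 of these genes were called higher at 24 h. They are written 5′ to 3′ on the gene's strand with 20 bases on each side where the window allowed it, and the capitals mark the matches.
ANKRD37 (chr4:185396659-185396722, plus strand, 182 to 119 bases before the start): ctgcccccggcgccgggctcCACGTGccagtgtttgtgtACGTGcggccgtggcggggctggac
WSB1 (chr17:27293993-27294081, plus strand, 121 to 33 bases before the start): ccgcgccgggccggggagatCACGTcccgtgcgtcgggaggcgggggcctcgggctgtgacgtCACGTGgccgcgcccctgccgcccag
STC2 (chr5:173328612-173328664, minus strand, 250 to 198 bases before the start): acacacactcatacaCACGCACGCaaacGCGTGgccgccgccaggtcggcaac
IGFBP3 (chr7:45921303-45921501, minus strand, 229 to 31 bases before the start): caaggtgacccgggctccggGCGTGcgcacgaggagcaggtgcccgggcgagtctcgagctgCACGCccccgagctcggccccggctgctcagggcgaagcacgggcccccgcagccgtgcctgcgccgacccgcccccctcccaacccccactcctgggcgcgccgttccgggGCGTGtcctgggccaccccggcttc
The ANKRD37 and WSB1 runs are of the ACGTG form and each stretch holds the palindrome CACGTG once, whereas the STC2 and IGFBP3 runs are all of the GCGTG form.

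The third replicate at 2 h stood apart from its group before any test. Among 28 measured textbook HIF targets, 20 had their highest 2 h value in that library, which was also highest for 6 of the 7 genes, against 34.9% of all tested genes. ADM, which encodes the vasodilator adrenomedullin, was at 163 FPKM there, and the lower of the other libraries at 42.7. The label gives the same time for all 3 libraries, and the 2 h results of the 7 genes are also given without this library. The epithelial markers EPCAM, KRT8, KRT18, KRT19, CDH1 and CDX2 were present, whereas CDX1, VIL1, CDH17 and LGALS4 averaged below 0.5 FPKM at every time point. PTPRC and CD3E (leukocytes) and PECAM1 (endothelium) were listed at 0 in the 0, 2 and 24 h groups. Of the leukocyte and fibroblast markers only CD68 and COL1A1 passed the filter, and both were higher at 24 h, with summed marker levels of 1.86 to 2.38 FPKM at 0 h and 6.96 to 14.3 at 24 h for the 4 leukocyte genes, and of 1.85 to 2.16 and 5.79 to 8.81 for the 4 fibroblast genes. The part of these markers in the 24 h results was not tested. Transcripts under 300 bases took 57.0 to 87.6% of all summed FPKM in a library.

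All 7 genes were higher at 24 h than at 0 h, by limma with an absolute log2 fold change above 1 and a Benjamini-Hochberg adjusted p under 0.01. IGFBP3 was among the tested genes only through its 24 h libraries. Over all tested genes, 8.76% were called higher and 9.51% lower. Every 24 h library lay above every 0 h library for each of the 7, which held for 27.6% of tested genes. The median log2 fold change was 2.72 over the 7 genes and −0.05 over all genes tested. None of the 7 was called at 1 h or at 2 h, where 0.006% and 0.018% of tested genes were called higher. The change between 2 h and 24 h was called for all 7, against 7.44% of tested genes. Every 24 h library also lay above every 2 h library for each of the 7, which held for 25.3% of tested genes.

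**Figure D1:**
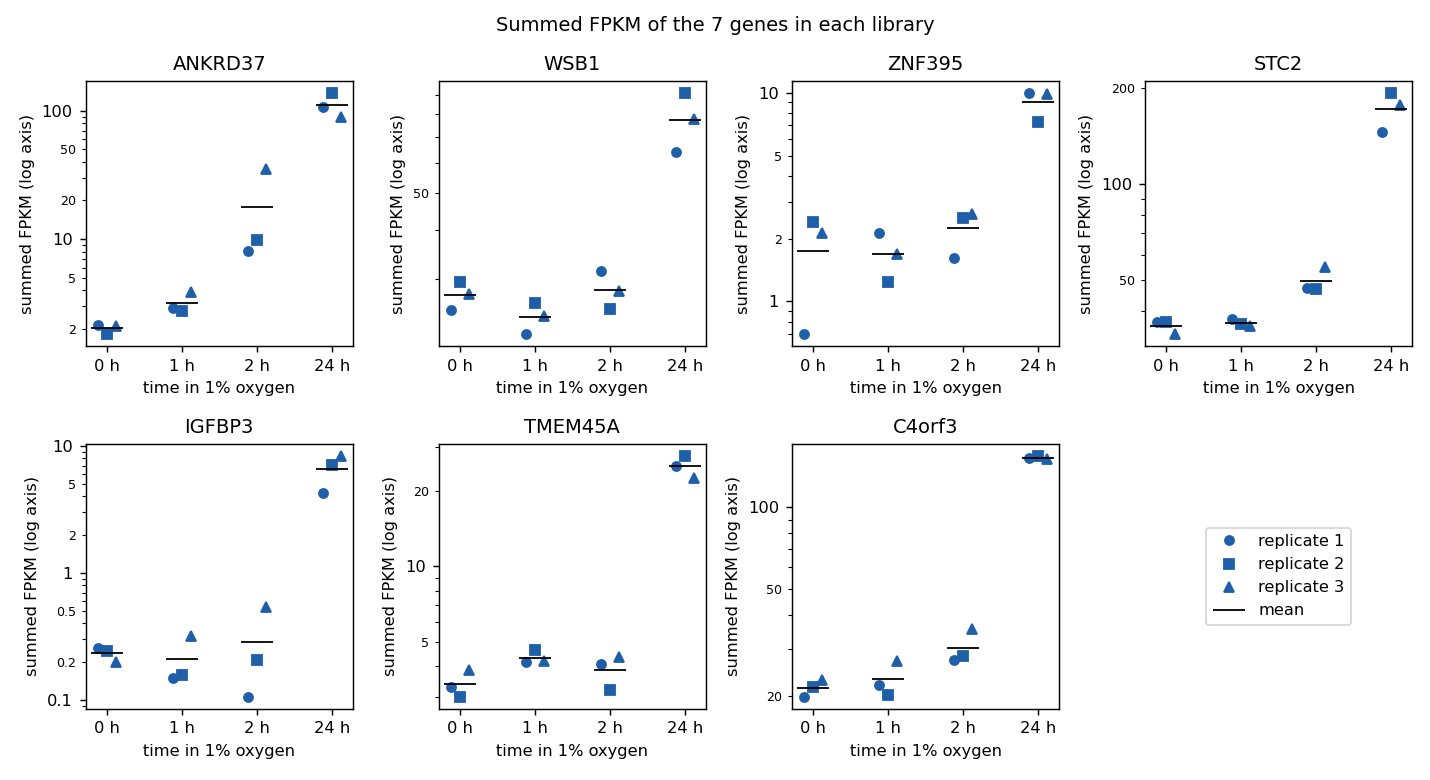
Summed FPKM (log axis, a separate range for each gene) of the 7 genes in each of the 12 libraries at 0, 1, 2 and 24 h in 1% oxygen, with points for replicates and a bar for the mean of 3. The 24 h libraries lie above all others in every panel, and the third replicate at 2 h is the highest 2 h point for 6 of the 7 genes.

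ANKRD37 (ENSG00000186352, chr4:186317175-186321782 on GRCh37, plus strand) rose furthest. Its summed FPKM was 2.13, 1.82 and 2.09 in the 0 h libraries, 2.88, 2.76 and 3.85 at 1 h, 8.12, 9.91 and 35.5 at 2 h, and 106.5, 137.5 and 89.0 at 24 h. The libraries of each time point lay above all libraries of the time point before it, which from 0 h to 1 h held for 6.36% of tested genes, from 1 h to 2 h for 4.11% and from 2 h to 24 h for the 25.3% given above. The 1 h change was not called (log2 fold change 0.53, limma adjusted p = 0.996). Mean FPKM went from 2.01 ± 0.17 (SD, n = 3) to 111 ± 24.6, a 55.1-fold ratio of means. By limma the log2 fold change at 24 h was 5.45 (SE 0.40, adjusted p = 9.8e-07), the 4th highest of 16680 genes. At 2 h it was 2.56 (SE 0.40, adjusted p = 0.029), past the size limit but not the adjusted p limit. Without the third 2 h library it was 1.92 (SE 0.19, adjusted p = 0.0064) and was called, so that the library which raised the mean also widened the error. The exons of ANKRD37 overlap those of UFSP2 on the opposite strand. UFSP2 was at 15.3 ± 0.54 FPKM at 0 h and 17.6 ± 2.93 at 24 h, with a log2 fold change of 0.18 (limma adjusted p = 0.20).

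ZNF395 (ENSG00000186918, minus strand) had the lowest levels of the 7 after IGFBP3, and its value depended on which transcripts were counted under its name. Transcripts named ZNF395 summed to 0.698, 2.40 and 2.14 FPKM at 0 h, 2.14, 1.25 and 1.69 at 1 h, 1.61, 2.53 and 2.63 at 2 h, and 9.98, 7.28 and 9.83 at 24 h. The 1 h and 2 h libraries overlapped those of 0 h, and the 24 h libraries did not. The log2 fold change by limma was 2.17 (SE 0.31, adjusted p = 8.6e-05) at 24 h and 0.37 (SE 0.31, adjusted p = 0.59) at 2 h. The assembly joined ZNF395 with its same-strand neighbour FBXO16, an F-box gene, into 1 locus.

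In that locus 8 further class j transcripts of 4752 to 5356 bases carried the name FBXO16 but belonged to start-site groups that also held ZNF395 transcripts. These were more abundant than the transcripts named ZNF395 in every library, at 7.07 ± 0.767 FPKM at 0 h and 20.9 ± 5.86 at 24 h (SD, n = 3). Both names together gave 7.85, 8.67 and 9.93 FPKM at 0 h and 24.7, 28.9 and 36.2 at 24 h, a 3.40-fold ratio of means against 5.17-fold for the name ZNF395 alone. The log2 fold change of the combined start-site groups was 1.70 (SE 0.17, limma adjusted p = 8.2e-06), and that of the whole locus was 1.29 (SE 0.15, adjusted p = 1.8e-05). The rise was called under each way of counting. The combined value lay within the 95% interval of the name alone (1.51 to 2.84) and that of the whole locus below it, and without the first 0 h library the name alone gave 1.77. Among class = and class j transcripts, no other gene of the 7 shared its assembled locus with another gene name.

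**Figure D2:**
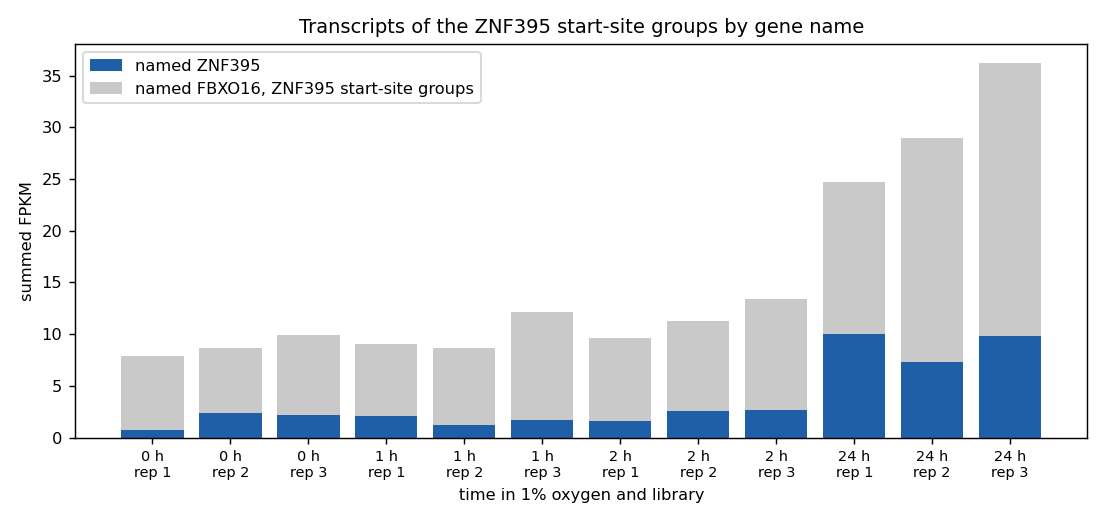
Summed FPKM in each of the 12 libraries of transcripts named ZNF395 (blue) and of transcripts named FBXO16 that belong to ZNF395 start-site groups (grey), stacked. The grey part is the larger in every library, and both parts are higher at 24 h than at 0 h.

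Among the secreted proteins, STC2 (ENSG00000113739, chr5:172741726-172755450, minus strand) was the most abundant before hypoxia. Its FPKM was 36.8, 36.9 and 33.7 at 0 h, 37.6, 36.4 and 35.9 at 1 h, 47.2, 46.6 and 54.7 at 2 h, and 146, 193 and 177 at 24 h. The 1 h libraries overlapped those of 0 h, and both later groups lay wholly above them. The log2 fold change was 2.24 (SE 0.11, limma adjusted p = 6.7e-08) at 24 h. At 2 h it was 0.46 with a 95% interval of 0.22 to 0.70 and an adjusted p of 0.10. Between the 2 h and 0 h libraries 12.2% of all tested genes showed the same lack of overlap.

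IGFBP3 (ENSG00000146674, chr7:45951844-45961473, minus strand) started below the filter of 0.5 FPKM. It was at 0.258, 0.243 and 0.200 FPKM at 0 h, 0.149, 0.157 and 0.320 at 1 h, 0.106, 0.206 and 0.541 at 2 h, and 4.27, 7.06 and 8.36 at 24 h. The 3 earlier groups overlapped one another and the 24 h libraries stood clear of them. The ratio of means was 28.1, whereas the log2 fold change on the FPKM + 0.5 scale was 3.22 (SE 0.26, limma adjusted p = 1.4e-06), which understates the ratio at such low levels. With a pseudocount of 0.1 it was 4.27 and with a pseudocount of 1 it was 2.58, and it was called with both. It was above 0.5 FPKM in all 3 libraries at 24 h and in 1 at 2 h, and so passed the filter through the group where it was high.

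The membrane proteins rose to about the same ratio at very different levels. TMEM45A (ENSG00000181458, chr3:100211463-100296288, plus strand) was at 3.31, 3.01 and 3.84 FPKM at 0 h, 4.16, 4.61 and 4.19 at 1 h, 4.06, 3.21 and 4.34 at 2 h, and 25.2, 27.6 and 22.6 at 24 h. The 1 h libraries lay above those of 0 h, as for 6.36% of tested genes, but the change was not called (log2 fold change 0.31, limma adjusted p = 0.996), and the 2 h libraries overlapped those of 0 h. Its log2 fold change was 2.72 (SE 0.14, limma adjusted p = 8.3e-08) at 24 h and 0.16 with a 95% interval of −0.13 to 0.46 at 2 h. C4orf3 (ENSG00000164096, chr4:120217574-120225600, minus strand) was at 19.9, 21.7 and 22.9 FPKM at 0 h, 22.1, 20.2 and 26.9 at 1 h, 27.2, 28.1 and 35.4 at 2 h, and 152, 155 and 150 at 24 h. Its 2 h libraries lay above those of 0 h and the 1 h libraries overlapped them. Its 24 h libraries differed little, with a coefficient of variation of 1.59%. The log2 fold change was 2.80 (SE 0.12, limma adjusted p = 3.5e-08) at 24 h. At 2 h it was 0.47 with a 95% interval of 0.20 to 0.74 and an adjusted p of 0.13.

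WSB1 (ENSG00000109046, chr17:25621102-25642952, plus strand) showed the lowest log2 fold change of the 7 when ZNF395 was counted by its name, though not when it was summed over its whole locus (1.29). Its FPKM was 24.9, 29.4 and 27.4 at 0 h, 21.6, 25.9 and 24.1 at 1 h, 31.3, 25.001 and 27.8 at 2 h, and 63.7, 90.8 and 77.6 at 24 h. The first 3 time points overlapped, and the lowest 24 h library was above the highest 2 h library. The log2 fold change was 1.48 (SE 0.14, limma adjusted p = 3.7e-06) at 24 h, the 608th highest of all tested genes. At 2 h it was 0.04 with a 95% interval of −0.25 to 0.34. After rescaling to TPM over all transcripts, which moved the median of all genes to −0.78, it was 0.61 (adjusted p = 0.25) and was not called, although it still lay above that median.

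**Figure D3:**
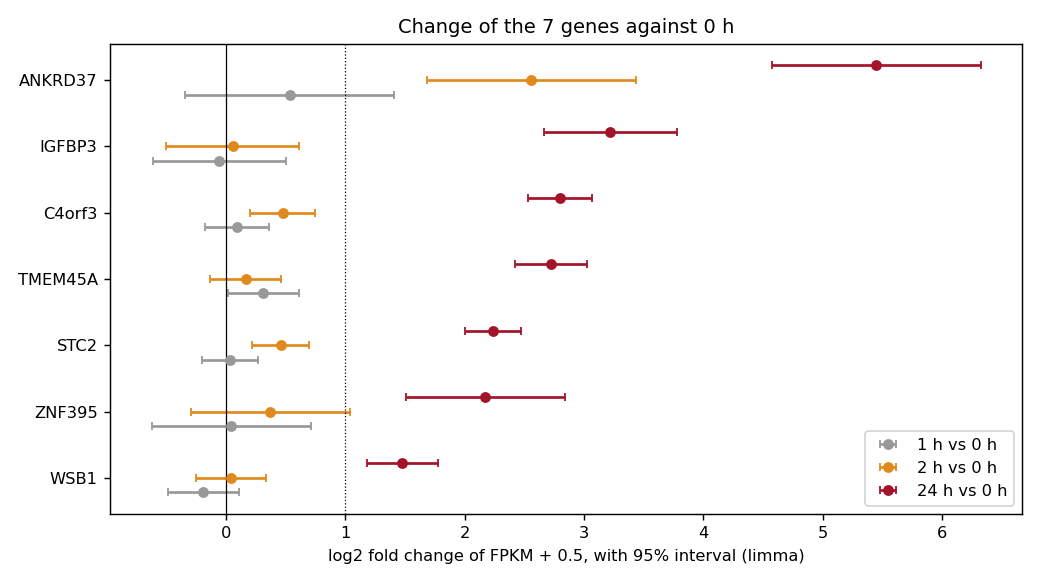
Log2 fold change of FPKM + 0.5 against 0 h, with 95% intervals from limma, for each gene at 1, 2 and 24 h (the dotted line marks 1). ANKRD37 is the only gene whose 2 h interval lies wholly above 1, and all 7 intervals at 24 h do.

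The part of the 24 h log2 change already present at 2 h is given as a description from point estimates. ANKRD37 had 46.9% of its 24 h log2 change at 2 h and STC2 20.5%, followed by ZNF395 with 17.2% and C4orf3 with 17.0%. TMEM45A had 6.05%, WSB1 2.72% and IGFBP3 1.82%. Without the third 2 h library the shares were 35.2% for ANKRD37, 17.2% for STC2, 12.7% for C4orf3, 12.4% for ZNF395, 3.18% for TMEM45A, 2.95% for WSB1 and −5.12% for IGFBP3. With any single library left out ANKRD37 stayed between 35.2 and 54.1%, whereas ZNF395 ran from −1.68 to 25.5%, WSB1 from −2.80 to 8.03% and IGFBP3 from −5.12 to 7.01%, so that the sign was not fixed for these 3. After rescaling to TPM over all transcripts, which moved the 2 h median of all genes to −0.94, other 2 h changes were also below 0. These were STC2 (−0.61), C4orf3 (−0.58) and TMEM45A (−0.66). The 2 h log2 fold change without the third 2 h library was 0.39 for STC2, 0.36 for C4orf3, 0.27 for ZNF395, 0.09 for TMEM45A, 0.04 for WSB1 and −0.16 for IGFBP3, and none of these was called. The differences between genes in this share were not tested. The further log2 change from 2 h to 24 h was 3.16 for IGFBP3 (SE 0.26, limma adjusted p = 2.2e-06), 2.89 for ANKRD37 (SE 0.40, adjusted p = 9.4e-05) and 1.44 for WSB1 (SE 0.14, adjusted p = 5.9e-06), and the order of the genes was not the same under every alternative. Without the third 2 h library all 7 were still called between 2 h and 24 h.

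The isoforms of each gene were compared by their share of the gene's summed FPKM, tested by limma on the log2 ratio of a transcript to the rest of its gene. ANKRD37 was the only 1 of the 7 with a share called at 24 h, with an adjusted p under 0.05, whereas 34.5% of 10680 tested genes had at least 1. It was also the only 1 by start-site group, against 21.4% of 8653 genes. At 2 h none of the 7 had a called share by limma, where 1 of 57084 transcripts was called.

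The full-length coding isoform ANKRD37-201 (1141 bases) held 73.9, 65.5 and 79.9% of the gene's FPKM at 0 h and 90.7, 88.7 and 86.8% at 24 h. Its log2 ratio to the rest rose by 1.66 (limma adjusted p = 0.025). A class j form of it, 1560 bases long and with another start site, held 10.9 ± 9.9% at 0 h and 1.9 ± 0.4% at 24 h, a log2 ratio change of −3.82 (adjusted p = 0.0012). The retained-intron isoform ANKRD37-206 was also called lower by the log2 ratio, at −2.68 (adjusted p = 0.00066), but its share was 3.1 ± 3.9% at 0 h and 3.4 ± 0.9% at 24 h. The whole gene was at about 2 FPKM at 0 h, so that its minor isoforms lay below the pseudocount of 0.5 there. The same held for ANKRD37-205, a retained-intron isoform (log2 ratio change −2.64, adjusted p = 0.0019), and ANKRD37-202 (−3.19, adjusted p = 0.00086), whose shares went from 2.7 ± 2.4 to 3.7 ± 2.1% and from 0 to 2.1 ± 1.3%. No called transcript other than ANKRD37-201 was above 0.5 FPKM in any 0 h library, and each of these passed the filter through its 24 h libraries. ANKRD37-202 was at 0 FPKM in every 0 h library, so that the sign of its log2 ratio change was set by the pseudocount. ANKRD37-203 (649 bases) held 10.2 ± 9.5% at 0 h and 0.24 ± 0.42% at 24 h but did not pass the filter. With a pseudocount of 0.1 the only ANKRD37 transcript that stayed called was the class j form (adjusted p = 0.018), and on the percent scale without a pseudocount none was.

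For STC2, C4orf3 and TMEM45A no isoform share was called at 24 h, while the summed level of each gene rose. The retained-intron isoform STC2-203 (582 bases, chr5:172752837-172755450) held 51.1 ± 2.2% of the STC2 FPKM at 0 h and 56.3 ± 2.1% at 24 h, a log2 ratio change of 0.30 (limma adjusted p = 0.32). The class j form of the coding isoform STC2-201 (4101 bases) held 37.5 ± 2.5% and 34.1 ± 0.9%. FPKM is a level per length, and the order turned round when each FPKM was multiplied by transcript length, which is proportional to fragments. On that scale the class j coding form held 67.8% at 0 h and 65.9% at 24 h, the complete match to STC2-201 (5353 bases) 17.6% at both times, and STC2-203 held 13.1% and 15.5%.

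For C4orf3, a class j form of C4orf3-201 (1238 bases) held 60.4 ± 2.8% at 0 h and 59.4 ± 4.7% at 24 h. The complete match to C4orf3-201 (2327 bases) held 34.7 ± 6.1% and 30.0 ± 11.1%. Weighted by length, these forms held 47.0% and 50.4% at 0 h and 49.1% and 45.3% at 24 h. The third isoform, C4orf3-202 (667 bases), was at 41.8, 5.63 and 0 FPKM in the 24 h libraries although their totals were 152, 155 and 150. In TMEM45A the complete match to TMEM45A-201 (1567 bases) held 49.7 ± 17.4% at 0 h and 53.4 ± 6.3% at 24 h, and the class j form of TMEM45A-202 (1829 bases) held 49.9 ± 17.5% and 42.0 ± 5.7%. Their levels went from 1.68 ± 0.57 to 13.4 ± 1.73 FPKM and from 1.70 ± 0.68 to 10.6 ± 1.88.

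WSB1 spread over coding and retained-intron isoforms at every time point. The coding isoform WSB1-201 (2844 bases) held 49.3 ± 8.9% at 0 h and 47.2 ± 4.2% at 24 h, and went from 13.3 ± 1.49 to 36.3 ± 5.00 FPKM. By FPKM the 5 annotated retained-intron isoforms of WSB1 together held 32.4 ± 3.0% and 36.6 ± 7.7%. The longest of those that passed the filter, WSB1-204 (4187 bases), was at 1.46, 1.16 and 1.40 FPKM at 0 h and 4.27, 8.40 and 19.8 at 24 h. Its log2 ratio to the rest changed by 0.99 (limma adjusted p = 0.26), with 6.7, 9.3 and 25.6% of the gene in the 3 libraries at 24 h. The short WSB1-212 (834 bases) held 20.5 ± 2.3% at 0 h and 12.2 ± 5.3% at 24 h (adjusted p = 0.15). Weighted by length, WSB1-201 held 65.9 ± 5.0% at 0 h and 56.5 ± 10.4% at 24 h. On that scale WSB1-204 went from 9.8 ± 0.9 to 22.9 ± 14.0% and WSB1-212 from 8.1 ± 0.7 to 4.4 ± 2.3%. The weighted shares were not tested. A class j form of WSB1-201 (2735 bases) was above 10% only at 2 h, with 10.96 ± 5.06%, and held 3.5 ± 1.0% at 0 h.

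At 24 h the IGFBP3 total was carried by the coding isoform IGFBP3-202 (2217 bases), with 63.5 ± 6.3%, and by ENST00000275521 (2262 bases), with 29.6 ± 2.8%. At 0 h the gene was too low for its shares to be read, as 1 short form of IGFBP3-206 (583 bases) took from 0 to 73.8% of it. A longer form of IGFBP3-206 (2006 bases) and a class j form of IGFBP3-202 held 21.3 ± 11.6% and 20.8 ± 36.0% at 2 h and IGFBP3-207 held 16.9 ± 29.2% at 1 h, at gene totals of at most 0.541 FPKM. ZNF395 divided at 24 h among ZNF395-211 with 38.4 ± 9.7%, ZNF395-210 with 27.9 ± 9.7% and ZNF395-201 with 20.2 ± 14.8%. The short ZNF395-209 (501 bases) held 17.5 ± 30.4% at 1 h and 7.3 ± 6.5% at 24 h, and ZNF395-206 (625 bases) held 11.7 ± 20.3% and 3.7 ± 6.4%. These are among the transcripts named ZNF395 only, and the larger group named FBXO16 is outside them.

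**Figure D4:**
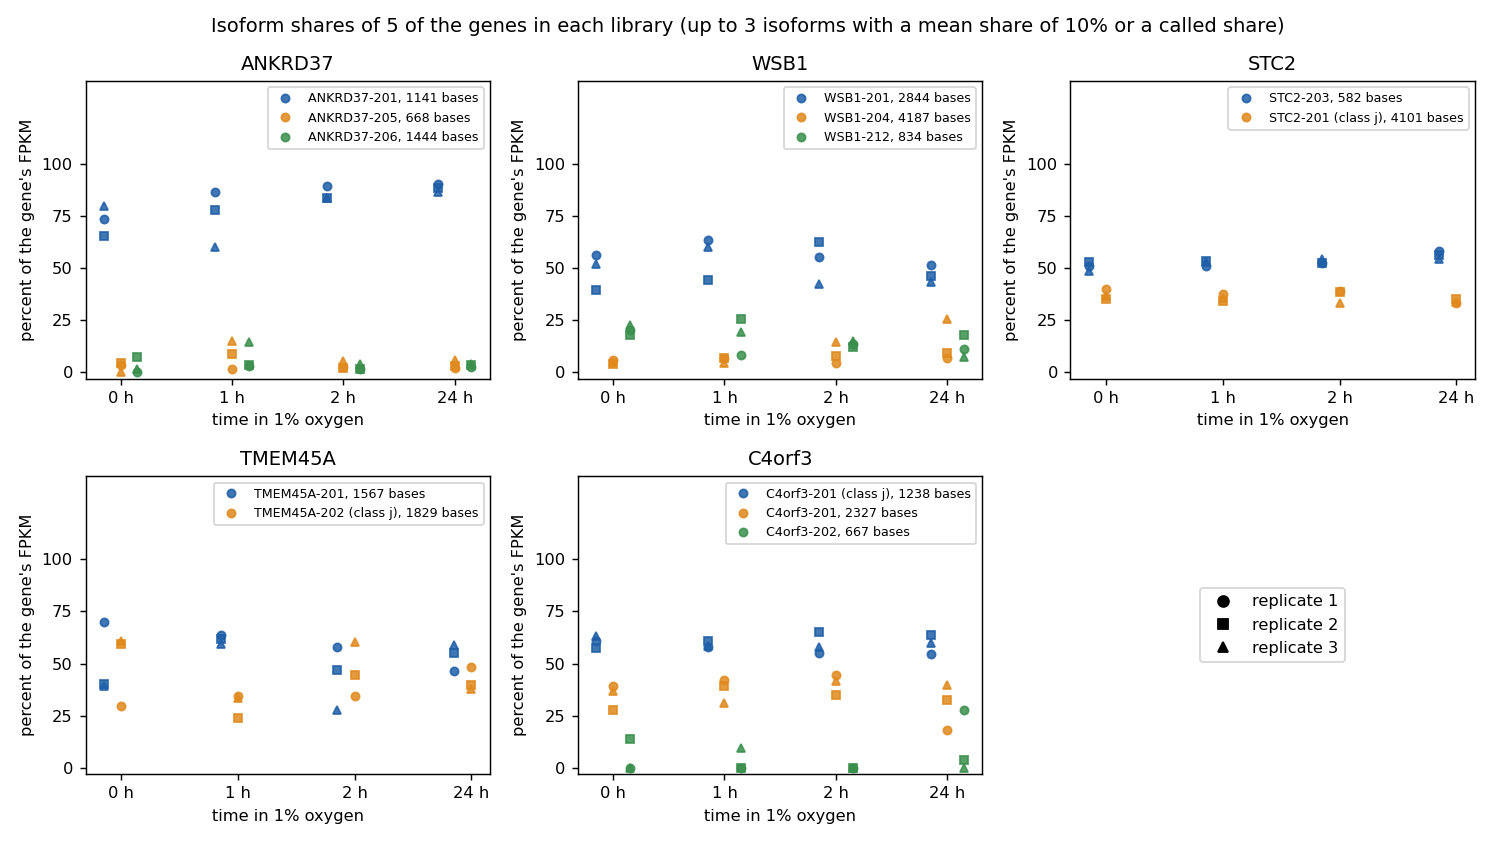
Share of a gene's summed FPKM (percent) held by up to 3 isoforms named in the text, in each library at 0, 1, 2 and 24 h, for ANKRD37, WSB1, STC2, TMEM45A and C4orf3. STC2-203 has the larger share of STC2 at all times, ANKRD37-201 lies between 65.5 and 79.9% at 0 h and above 86% at 24 h, and C4orf3-202 scatters from 0 to 27.5% at 24 h.

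The 12-library patterns most like those of the 7 genes are given as a description, by Pearson's r of log2(FPKM + 0.5). The 12 points share the step between 2 h and 24 h. ANKRD37 was closest to ANGPTL4 (r = 0.989), a secreted regulator of lipid metabolism, and VEGFA (0.988), the angiogenic growth factor. STC2 was closest to INSIG2 (0.996) and BNIP3 (0.994), and C4orf3 to VKORC1 (0.994) and INSIG2 (0.994). TMEM45A was closest to PLOD2 (0.992), a collagen lysyl hydroxylase, and PGK1 (0.990), a glycolytic kinase. IGFBP3 was closest to FAM115C (0.996) and GAPDH (0.994), WSB1 to PLS3 (0.985) and FUT11 (0.981), and ZNF395 to COL4A3 (0.973) and GALNT9 (0.971). ZNF395 was taken here by its name alone. IGFBP3 (0.23), FAM115C (0.22), COL4A3 (0.44) and GALNT9 (0.12) averaged below the pseudocount of 0.5 FPKM at 0 h, which flattens their low points.

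The textbook HIF targets gave the scale for these changes. At 24 h 26 of 28 measured targets were called higher, against 8.76% of all tested genes. TFRC, the transferrin receptor, was called lower (−1.11), as were 9.51% of all tested genes. The median log2 fold change of the targets was 2.90 against 2.72 over the 7 genes. The largest changes were those of ANGPTL4 (6.21), DDIT4 (5.68) and NDRG1 (5.34), and ANKRD37, at 5.45, lay between DDIT4 and NDRG1. At 2 h none of the 28 was called, where 0.018% of all tested genes were called higher. Of the 28, 23 had a log2 fold change above 0, and the median was 0.49, or 0.40 without the third 2 h library. Over all tested genes the 2 h median was −0.02. After rescaling to TPM over all transcripts, which moved the 2 h median of all genes to −0.94, the median of the targets turned to −0.53 and 2 were called higher. LOX and VLDLR did not pass the filter. The call of TFRC was lost without any single 0 h library, and after rescaling to TPM over all transcripts 16 targets were called higher.

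In the HIF pathway itself 4 of 12 measured genes were called higher and 2 lower at 24 h, against 8.76% and 9.51% of all tested genes. After rescaling to TPM over all transcripts 2 were called higher and 2 lower, and the list median was −0.33. EGLN3 and EGLN1, the oxygen-sensing hydroxylases, went from 1.93 ± 0.365 to 26.7 ± 6.95 FPKM and from 18.3 ± 0.565 to 70.7 ± 0.661, which on the log2 scale was 3.46 for EGLN3 and 1.92 for EGLN1 (adjusted p by limma 3.8e-07 and 2.3e-08). EPAS1, the HIF-2 alpha subunit, rose by 2.06 on the log2 scale (limma adjusted p = 6.4e-06), and CITED2, a competitor of HIF for its coactivators, was also called (1.28). HIF1A mRNA fell from 61.3 ± 3.11 to 30.5 ± 4.60 FPKM (log2 fold change −1.003, adjusted p = 2.4e-05), and EGLN2 fell by 1.02 on the log2 scale. Both lay at the size limit, and neither was called with a pseudocount of 1 or after median-of-ratios scaling. Levels of mRNA do not show the protein of HIF-1 alpha, which is regulated by its destruction.

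The partners and relatives of the 7 genes mostly moved less than the genes themselves. Of 11 measured ubiquitin ligase partners and kin of WSB1, SOCS3 alone was called (log2 fold change 1.06), a share near the 8.76% of all tested genes, and the median was −0.16. None was called higher with class code = alone. After rescaling to TPM over all transcripts, which moved the median of all genes to −0.78, 0 were called higher and 3 lower, with a list median of −0.95. HIPK2, a kinase that WSB1 marks for destruction, was at 0.91 (adjusted p = 0.0041 by limma) and was under the size limit, as was SOCS2 at −0.74 (adjusted p = 0.0036). In the IGF axis 4 of 8 measured genes were called higher, IRS2 (2.13), INSR (1.52), IGFBP6 (1.47) and IGF2 (1.26), with a median of 1.07, against 8.76% of all tested genes. After rescaling to TPM over all transcripts 1 was called and the median was 0.29. IGFBP1, IGFBP4, IGFBP5 and IGFBP7 did not pass the filter. Among the SERCA pumps that C4orf3 inhibits, none of 3 was called, and the list median was 0.45. ATP2A2, by far the most abundant, went from 128 ± 4.30 to 89.7 ± 17.5 FPKM (log2 fold change −0.53, limma adjusted p = 0.0029), whereas ATP2A3 was at 0.67 (adjusted p = 0.046) and ATP2A1 at 0.45 (adjusted p = 0.23). The muscle regulins PLN and SLN did not pass the filter. FEM1C, 1 of 3 FEM1 substrate receptors of CUL2 ligases, was called at 1.48 (limma adjusted p = 5.8e-05), while FEM1A was at −0.73 (adjusted p = 0.00010) and FEM1B at 0.19. Of the relatives of ZNF395, ZNF704 was called at 1.41 (limma adjusted p = 0.00079) and SLC2A4RG was at −0.30 (adjusted p = 0.012). The calls of FEM1C and ZNF704 were lost after rescaling to TPM over all transcripts. With 2 or 3 measured genes each, the SERCA, FEM1 and ZNF395 lists are too short to set against the 8.76% of all tested genes. The sister genes STC1 and TMEM45B were listed at low levels and did not pass the filter, so that they were not tested.

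**Figure D5:**
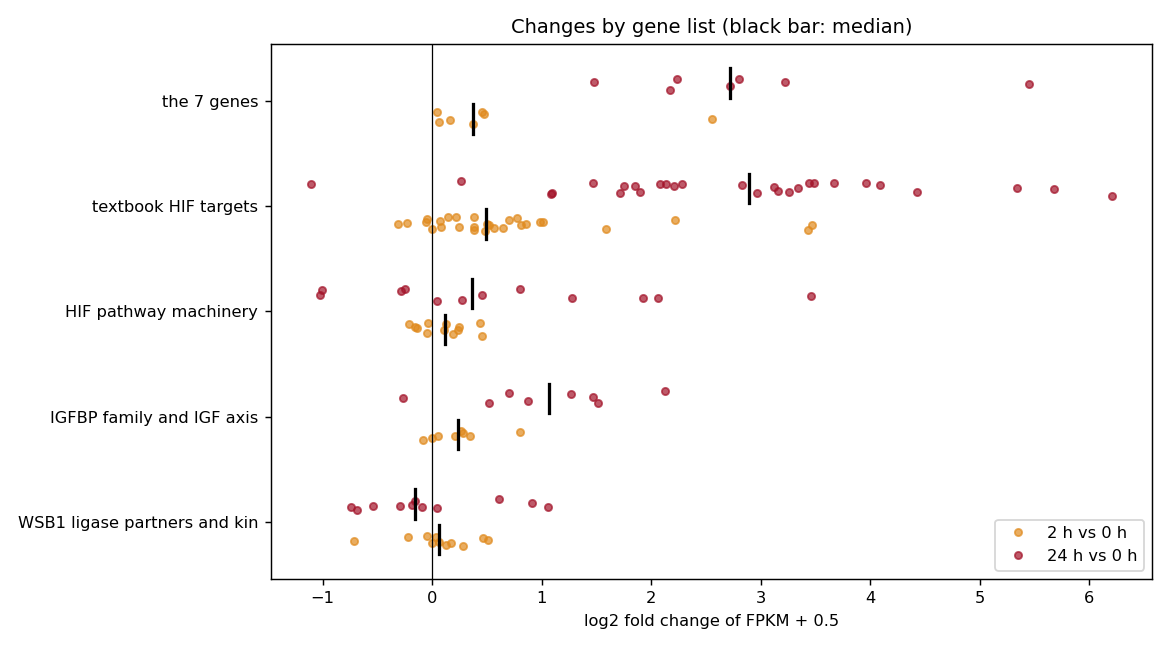
Log2 fold change of FPKM + 0.5 at 2 h and at 24 h against 0 h, 1 point per gene, for the 7 genes and 4 gene lists, with a black bar at the median. The 7 genes lie within the range of the textbook HIF targets at 24 h (medians 2.72 and 2.90), and the WSB1 partners centre at −0.16.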

How the data were processed

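HCT116 poly(A) RNA-seq reads were aligned by the authors to hg19 with Mapsplice, and transcripts were assembled with Cufflinks and merged with the Ensembl annotation. The authors deposited FPKM values per assembled transcript, with class codes, gene names and start-site groups. These values carry no counts, so the depth behind each value and its counting error are unknown.

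FPKM was summed per gene name. Log2(FPKM + 0.5) was fitted in limma 3.58.1 (R 4.3.3) with all 12 libraries and a trended variance, for genes above 0.5 FPKM in at least 3 libraries. Isoform shares used the same fit, for transcripts above 0.5 FPKM. Isoform types and GRCh37 positions came from GENCODE v44lift37. The labels name CASAVA 1.8.2 and Cufflinks.

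The genes and lists were chosen with earlier results of these data known. By rule the text names the 7 genes, their isoforms with a mean share of at least 10% or a called share, the 2 most alike genes for each, and the 3 genes of each list with the largest change. Other list members and the overlapping genes were named after their values were seen.

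Alternatives covered pseudocounts, filters, class codes, locus sums, scalings, variance models, a replicate block and each library left out (for shares, each 0 h or 24 h library). FPKM times length, percent shares and sums over start-site groups were added after seeing the data.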

Additional observations from a re-analysis of the deposited data

Results flagged for a closer look

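The change from 0 h was larger at 24 h than at 2 h, both taken against the same 0 h libraries, for each of the 7 genes by the direct 24 h against 2 h contrast in limma. The difference on the log2 scale was 3.16 for IGFBP3, 2.89 for ANKRD37, 2.56 for TMEM45A, 2.32 for C4orf3, 1.8002 for ZNF395, 1.78 for STC2 and 1.44 for WSB1, and in each gene all 3 libraries at 24 h lay above all 3 at 2 h. This lack of overlap held for 25.3% of all tested genes, and 7.44% were called higher at 24 h against 2 h. With 3 libraries per time point, no formal test for an outlying library was run.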

How the results depend on the processing

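All 7 genes were called higher at 24 h against 0 h in 28 of 29 alternatives, and 6 were called in the remaining one, after rescaling to TPM over all transcripts, where WSB1 was at 0.61 and 209 genes were called higher over the whole table (median log2 fold change of all genes −0.78 at 24 h and −0.94 at 2 h). With an adjusted p under 0.05 alone, 4170 genes were called higher and 1 of the 7 (ANKRD37, 2.56) was called at 2 h. Leaving out each library in turn gave 7 of the 7 at 24 h, 0 to 1 at 2 h (ANKRD37 was called at 1.92 without the third 2 h library), 0 at 1 h and 1293 to 1513 genes called higher at 24 h. Signs at 2 h that were not called reversed under TPM over all transcripts for WSB1 (−1.002), TMEM45A (−0.66), STC2 (−0.61), C4orf3 (−0.58), ZNF395 (−0.36) and IGFBP3 (−0.14). They also reversed for WSB1 with class code = alone (−0.075). With each library left out in turn the 2 h values ran from −0.041 to 0.12 for WSB1 (below 0 without the first 0 h library, −0.022, or the first 2 h library, −0.041), from −0.030 to 0.61 for ZNF395 (below 0 without the first 0 h library) and from −0.16 to 0.23 for IGFBP3 (below 0 without the third 2 h library). The number of the 7 genes with a called share at 24 h was 0 on the percent scale, by transcript and by start-site group. It was 1 to 2 with each 0 h or 24 h library left out, by either unit. The second gene was ZNF395, for its 625-base isoform, without the second 0 h library (transcripts) or the third 24 h library (both units). Over the 28 alternatives run on the lists the textbook HIF targets called higher at 24 h numbered 16 to 26, the HIF pathway genes 2 to 6, the IGF axis genes 1 to 7 and the WSB1 partners 0 to 3, and apart from TPM over all transcripts the textbook targets numbered 25 to 26. With the replicate block, 7 of the 7 were called at 24 h, 0 at 2 h and 1499 genes over the table, and the block changed no call among the 7. The correlations of same-numbered libraries were over 0.1 in 10 of 18 pairs, and the numbers were not taken to pair the samples.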
